A study of Mus musculus with 18 samples.

Results

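The AP-1 transcription factors measured here were the 10 genes Fos, Fosb, Fosl1, Fosl2, Jun, Junb, Jund, Batf, Batf3 and Jdp2. They were taken by gene symbol from a table of 34745 mouse genes, and all 10 were among the 14241 genes that passed the filter on low counts. AP-1 is not 1 protein but a family of pairs. Each member carries a basic region that contacts DNA and a leucine zipper through which it joins a partner. FOS proteins cannot pair with themselves and need a JUN partner, whereas JUN proteins can pair with each other or with FOS. BATF and BATF3 pair with JUN proteins but lack the activation domains of FOS, and JDP2 pairs with JUN proteins and is known mainly as a repressor. In the macrophage lineage, RANKL signals through TRAF6 and MAP kinases to AP-1. Mice without Fos lack osteoclasts, and c-Fos is known to act before NFATc1, the factor that turns on most osteoclast genes. Jdp2 is also known to be needed for normal osteoclast formation in mice.

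Levels were read by RNA sequencing of macrophages that had been cultured out of mouse bone marrow in M-CSF. The cells came from Zmat1 knockout mice (labelled KO) or from their wild-type littermates (labelled WT). They had M-CSF without RANKL (day 0) or were then given RANKL for 1 day or 3 days. The 6 groups of label and day held 3 libraries each, 18 in all, with 13789775 to 17559958 counts per library. The knockout was of the whole animal, so every cell type in a KO culture carried it, and which part of Zmat1 was deleted is not given in the sources used here. The study genotyped its mice by PCR of tail DNA and checked Zmat1 mRNA by qPCR in macrophages of both genotypes. In the counts used here, Zmat1 itself was not lost in the libraries labelled KO. It had at least 49 counts in each of them and at least 32 in each labelled WT, and its log2 fold change of KO over WT was 0.24 on day 0, 0.40 on day 1 and 0.63 on day 3 (adjusted p 0.93, 0.821 and 0.616, edgeR). Every direction between KO and WT given here is therefore a direction between labels. Nothing says whether the 3 libraries of a group came from separate animals, so p-values measure the spread between libraries, which may be technical. Titles were written in 2 styles, and the 5 libraries with a double hyphen (in WT, library 1 of day 0 and 1 of day 1, and in KO, library 2 of day 0 and libraries 1 and 2 of day 1) stood apart in several members. WT day 1 had 2 libraries numbered 1 and no library numbered 3. The one with the double hyphen is called library 1dh here.

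The table placed the genes on 7 chromosomes of GRCm38. Of the Fos family, Fos (ENSMUSG00000021250) lay at chr12:85473890-85477273, Fosb at chr7:19302721-19310045, Fosl1 at chr19:5447703-5455945 and Fosl2 at chr5:32135801-32157842. Of the Jun family, Jun (ENSMUSG00000052684) lay at chr4:95049034-95052222, Junb at chr8:84976909-84978748 and Jund at chr8:70697739-70700616. Batf (ENSMUSG00000034266) lay at chr12:85686669-85709087, Batf3 at chr1:191097847-191108945 and Jdp2 (ENSMUSG00000034271) at chr12:85599105-85639878. For 5 of the 10 the interval was the same as that of the gene in GENCODE vM21. An antisense gene overlapped Jun (Junos, at most 65 counts in a library) and Jund (Gm11175, at most 20 counts). Whether counting used strand is not stated, so reads of these pairs cannot be told apart.

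Promoters are shown for 4 members, because Fos and Jdp2 rose with RANKL while Batf, on the same stretch of chromosome 12, fell, and because Jun carries a known site for AP-1 in its own promoter. RefSeq promoter windows on GRCm38.p6 ran from 250 bases before a transcript start to 50 after it. There were 11 windows for 9 members, and Fosl1 had none. Only the bases before the start that lie in no annotated exon are printed, 5′ to 3′ on the strand of the gene. Capitals mark matches to the motifs searched on both strands, which were TGANTCA (the classical AP-1 site, a palindrome), TGACNTCA (the CRE-like form), TGACG (the core of the CRE, which overlaps TGACNTCA where N is G), TATAAA and the CArG box.
Fos, chr12:85473640-85473889, plus strand: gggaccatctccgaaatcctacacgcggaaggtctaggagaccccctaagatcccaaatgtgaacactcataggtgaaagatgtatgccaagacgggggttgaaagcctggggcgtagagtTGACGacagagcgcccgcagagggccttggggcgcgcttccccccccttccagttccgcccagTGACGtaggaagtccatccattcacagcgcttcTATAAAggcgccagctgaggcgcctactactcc
Jdp2, chr12:85599228-85599415, plus strand: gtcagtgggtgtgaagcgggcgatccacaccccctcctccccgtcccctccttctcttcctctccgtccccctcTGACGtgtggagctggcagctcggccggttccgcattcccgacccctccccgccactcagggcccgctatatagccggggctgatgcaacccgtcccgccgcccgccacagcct
Batf, chr12:85686470-85686668, plus strand: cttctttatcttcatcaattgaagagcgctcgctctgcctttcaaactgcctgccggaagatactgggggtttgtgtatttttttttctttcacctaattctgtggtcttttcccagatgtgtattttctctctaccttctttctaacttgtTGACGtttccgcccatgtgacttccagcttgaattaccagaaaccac
Jun, chr4:95052223-95052472, minus strand: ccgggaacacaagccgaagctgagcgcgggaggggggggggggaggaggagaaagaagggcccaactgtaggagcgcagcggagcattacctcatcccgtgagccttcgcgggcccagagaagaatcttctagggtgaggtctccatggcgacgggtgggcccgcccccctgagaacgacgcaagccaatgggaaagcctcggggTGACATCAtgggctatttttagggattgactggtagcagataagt
The run of Fos held TGACG starting 129 and 66 bases before the start and TATAAA starting 33 bases before it. The run of Jun held TGACATCA starting 45 bases before the start. It was the only TGACNTCA in the 11 windows, against 8.83% of 32851 mouse promoter windows of the same length. TGACG was found in 5 of the 11 windows (Fos, Fosb, Junb, Batf and the middle of 3 windows of Jdp2), against 20.8% of all windows. TATAAA was found in Fos and in Junb, where it began at the RefSeq start itself, 30 bases before the GENCODE start (13.6% of all windows). TGANTCA and the CArG box were in none of the 11 windows and in 7.81% and 1.63% of all windows. No match says only that these letters are not in these windows.

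After 3 days of RANKL some members of the family were higher and others lower. In the libraries labelled WT, 7 of the 10 members were called between day 0 and day 3 at an adjusted p under 0.05 (edgeR, all genes tested together), against 50.2% of all genes tested. Fos, Fosl1, Fosl2, Junb and Jdp2 were higher, 5 of 10 against 23.7% of all genes, and Batf and Batf3 were lower, 2 of 10 against 26.5%. The median log2 fold change was 1.16 over the members and -0.03 over all genes. In the libraries labelled KO, 5 of the 10 were called against 42.5% of all genes. Fosl2, Junb and Jdp2 were higher (3 of 10 against 20.2%), Batf and Batf3 were lower (2 of 10 against 22.3%), and the median log2 fold change was 0.87 over the members and -0.01 over all genes. Scaling by total counts in place of TMM moved the median log2 fold change over all genes by 0.36 in WT and 0.29 in KO and turned the direction of no called member. Levels are CPM, counts scaled to a common library size with TMM factors, given as mean ± SD of 3 libraries, and log2 fold changes are edgeR fits with their standard errors (SE).

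**Figure D1:**
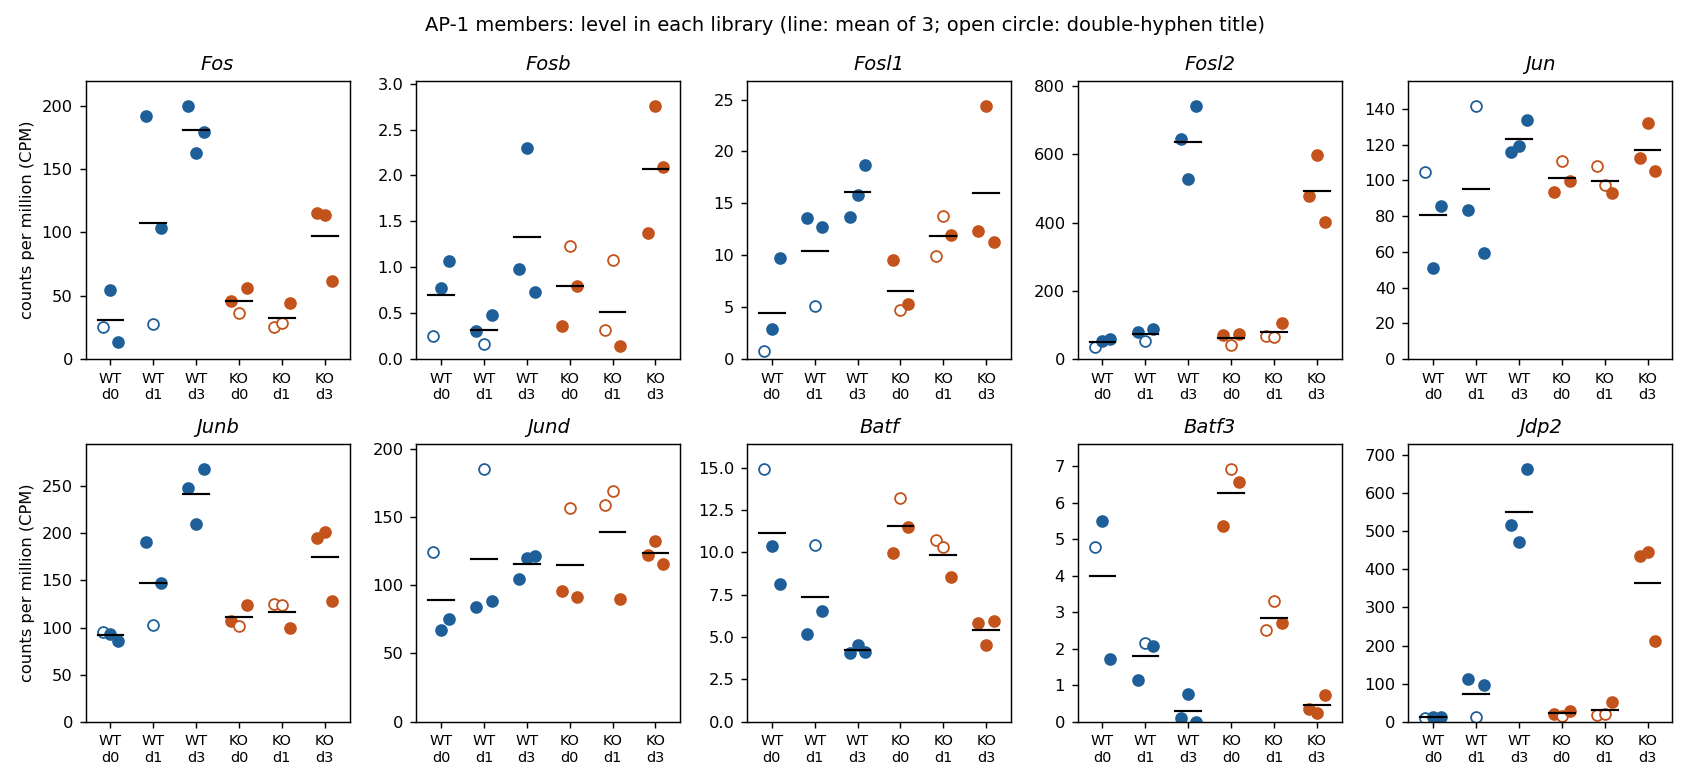
Level of each member in every library, in CPM on a linear axis from 0 that differs between panels, by label and day. Points are libraries (open circles mark double-hyphen titles) and lines are means of 3. Fosl2 and Jdp2 are far above all earlier libraries on day 3 under both labels, Batf and Batf3 are lowest then, and the open circles of Jund stand highest on days 0 and 1.

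The makeup of the cultures changed over the same days. The summed CPM of 8 osteoclast markers ran from 104.3 to 522.2 on WT day 0 and from 15240 to 22410 on WT day 3. In KO it ran from 524.4 to 814.7 on day 0 and from 7844 to 17020 on day 3. The summed CPM of 7 macrophage markers went from 9300 to 11900 on WT day 0 down to 2906 to 3930 on WT day 3. None of the 7 was at 3 counts or fewer throughout, so the defining markers of the labelled cell type were present. Stromal or osteoblast markers (8 genes, Bglap at 3 counts or fewer in every library) ran from 92.17 to 4718 on WT day 0, 10950 to 14110 on WT day 3 and 20420 to 29340 on KO day 3, led by Col1a1. Markers of neutrophils (8 genes) ran from 661.9 to 3012 on WT day 0 and 35.81 to 66.94 on WT day 3, and from 3650 to 11710 on KO day 0 and 97.58 to 1147 on KO day 3. Markers of B cells (6 genes) ran from 302.3 to 407.9 on WT day 0 and from 26.48 to 30.82 on WT day 3, and markers of T or NK cells (4 genes) stayed at or below 8.373 in every library. Their part in the results on single members was not tested. In bulk RNA, fewer cells of a type and less RNA per cell cannot be told apart.

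Fos, the founding member and the one osteoclasts require, rose in the libraries labelled WT. Its level was 25.39, 54.41 and 13.8 CPM in the 3 WT day 0 libraries and 199.6, 162.8 and 179.1 CPM on day 3, so the groups did not overlap. The log2 fold change was 2.53 ± 0.57 (SE, 5.79-fold, adjusted p = 0.00231). In those labelled KO, Fos was at 45.93, 36.38 and 55.77 CPM on day 0 and 115.3, 113.9 and 61.63 CPM on day 3. The log2 fold change of 1.07 ± 0.55 did not pass (adjusted p = 0.125), although all 3 day 3 libraries were above all 3 of day 0. Such a lack of overlap between day 3 and day 0 was common, in 8 of the 10 members and 62.5% of all genes in WT and in 8 of the 10 and 58.8% of all genes in KO. A fit of only the KO day 0 and day 3 groups called 7 members, Fos and Fosl1 among them, and 45.9% of all genes.

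Fosl2 (Fra-2), a FOS relative without the strong activation domain of c-Fos, rose under both labels. In WT it went from 34.79, 51.39 and 59.21 CPM to 644.1, 527.2 and 740.5 CPM, a log2 fold change of 3.72 ± 0.31 (13.1-fold, adjusted p = 2.35e-06). In KO it went from 70.32, 42.45 and 72.66 CPM to 476.3, 597.6 and 400.8 CPM, a log2 fold change of 2.99 ± 0.30 (7.95-fold, adjusted p = 1.66e-05). Every day 3 library was above every day 0 library under both labels. Fosl2 stayed called under every alternative run, for both labels.

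Fosl1 (Fra-1), another FOS relative without that activation domain, was a low transcript that rose in WT, by an amount that depended on the libraries. It was at 0.742, 2.864 and 9.725 CPM on WT day 0 and 13.73, 15.82 and 18.74 CPM on day 3, and the log2 fold change was 1.85 ± 0.63 (adjusted p = 0.0241). WT day 0 library 3 had the highest day 0 level of the gene. Without that library the log2 fold change was 3.17, and when WT day 0 library 1 was left out it was 1.38 and no longer called. The call was lost in 4 of 16 alternatives, which were a fit of only the groups compared and leaving out WT day 0 library 1, WT day 0 library 2 or WT day 3 library 3. The same WT day 0 library 3 held the most stromal marker CPM of its group (4718, against 92.17 and 522.3 in libraries 1 and 2). In KO, Fosl1 was at 9.556, 4.768 and 5.315 CPM on day 0 and 12.33, 24.35 and 11.27 CPM on day 3 (log2 fold change 1.29 ± 0.61, adjusted p = 0.102). Fosb, the closest relative of Fos, was near the detection limit, with 2 to 45 counts in every library. Its log2 fold changes to day 3 of 0.91 ± 0.70 in WT and 1.38 ± 0.70 in KO did not pass (adjusted p 0.287 and 0.123).

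Among the Jun genes, which supply the partner that every FOS protein needs, Junb was the one that passed. JUNB activates transcription less than c-Jun and can oppose it. Junb was at 95.46, 93.42 and 86.24 CPM on WT day 0 and 248.5, 209.8 and 268.4 CPM on day 3 (log2 fold change 1.40 ± 0.21, 2.64-fold, adjusted p = 0.000126). In KO it was at 107.3, 101.4 and 124.1 CPM on day 0 and 195, 202 and 128.2 CPM on day 3 (0.66 ± 0.21, 1.58-fold, adjusted p = 0.0204). KO day 3 library 3 was just above the highest KO day 0 library, and the other two stood clear. Leaving out 1 library or changing the fit lost the KO call in 4 of 16 alternatives.

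Jun, the gene of c-Jun, did not pass under either label. It was at 104.9, 51.24 and 85.59 CPM on WT day 0 and 116, 119.5 and 133.9 CPM on day 3, and the log2 fold change of 0.61 ± 0.27 missed the threshold (adjusted p = 0.0684). That call was gained in 7 of 16 alternatives, among them scaling by total counts (log2 fold change 0.99). In KO it was 93.49 to 110.9 CPM on day 0 and 105.3 to 132.4 CPM on day 3 (0.20 ± 0.27, adjusted p = 0.559). Jund, whose product is known for steady expression across states, ran from 67.33 to 124.2 CPM on WT day 0 and from 104.8 to 121.1 CPM on day 3 (0.37 ± 0.32, adjusted p = 0.346). In KO it ran from 91.23 to 156.1 CPM and from 115.4 to 132.2 CPM (0.11 ± 0.32, adjusted p = 0.81). Its higher levels on day 0 were in the libraries with double-hyphen titles.

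Jdp2 had the largest fitted rise of the 10 members under both labels. On WT day 0 it was at 10.96, 11.45 and 13.73 CPM, and on day 3 at 516.3, 470.9 and 663.7 CPM. That was a log2 fold change of 5.51 ± 0.71 (45.6-fold, adjusted p = 4.11e-05). On KO day 0 it was at 21.18, 15.69 and 28.9 CPM, and on day 3 at 436.2, 444.6 and 213.3 CPM. The log2 fold change was 4.06 ± 0.66 (16.6-fold, adjusted p = 0.000362). KO day 3 library 3 was the low one, as it was for Fos, Fosl2 and Junb. Its osteoclast marker sum of 7844 CPM was also the lowest of its group, and its neutrophil marker sum of 1147 CPM the highest, and their part in the low value was not tested.

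Batf and Batf3, known best for their roles in lymphocytes and dendritic cells, went the other way. Batf was at 14.92, 10.37 and 8.152 CPM on WT day 0 and 4.078, 4.528 and 4.096 CPM on day 3 (log2 fold change -1.39 ± 0.26, adjusted p = 0.00068). In KO it was at 9.984, 13.23 and 11.5 CPM and then 5.837, 4.527 and 5.948 CPM (-1.09 ± 0.26, adjusted p = 0.00458). Batf3 fell from 4.781, 5.495 and 1.716 CPM to 0.103, 0.765 and 0 CPM in WT (-3.78 ± 0.79, adjusted p = 0.00133). The WT day 3 value rests on 0 to 13 counts a library, and without WT day 3 library 2 the log2 fold change was -6.02. In KO it fell from 5.349, 6.922 and 6.553 CPM to 0.357, 0.245 and 0.736 CPM (-3.78 ± 0.76, adjusted p = 0.00155). The groups did not overlap for either gene under either label. The B cell, neutrophil and macrophage marker sums were lower on the same day. In WT the macrophage sum was 9300 to 11900 CPM on day 0 and 2906 to 3930 CPM on day 3. Of the B cell markers in WT, Ighm went from a mean of 334.5 to 9.547 CPM. Ebf1 rose from 4.585 to 17.64 CPM, and the rest had lower means on day 3. The 6 dendritic cell markers, of which Xcr1 had at most 3 counts in any library, summed to 3.133 to 7.937 CPM on WT day 0 and 5.213 to 6.789 CPM on WT day 3. Zbtb46 went from a mean of 1.42 to 5.15 CPM, and the other 5 had lower means on day 3 (Siglech 1.99 and 0.239 CPM, Clec9a 0.667 and 0.159, Ccr7 0.686 and 0.164, Flt3 0.266 and 0.112, Xcr1 0.182 and 0). The part of these cells in the fall of Batf and Batf3 was not tested.

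**Figure D2:**
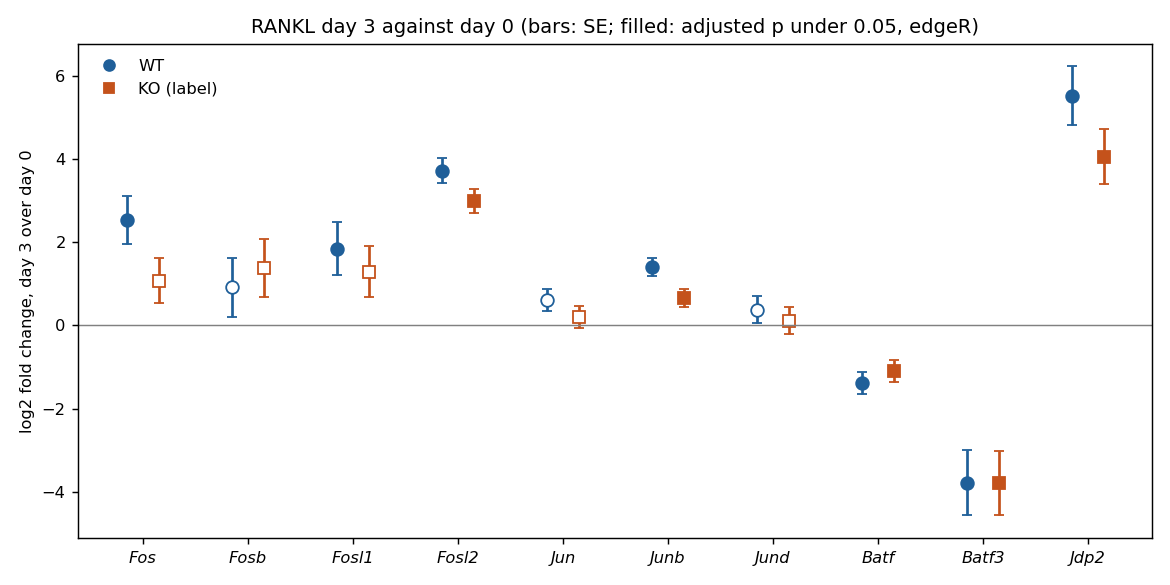
Log2 fold change of day 3 over day 0 for each member, with SE bars, from edgeR. Circles are libraries labelled WT and squares those labelled KO, filled where the adjusted p was under 0.05. Jdp2 (5.51 in WT, 4.06 in KO) and Fosl2 (3.72 and 2.99) are highest, Batf3 (-3.78 in both) is lowest, and Jun, Jund and Fosb are open under both labels.

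Fos, Jdp2 and Batf are neighbours. From the start of Fos to the end of Batf is 235.2 kb of chromosome 12, and the table holds no other gene that lies wholly inside it. The end of Fos and the start of Jdp2 are 121.8 kb apart, and the end of Jdp2 and the start of Batf 46.79 kb. All 3 are on the plus strand. In WT, Fos and Jdp2 rose over 3 days (log2 fold change 2.53 and 5.51) and Batf fell (-1.39).

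**Figure D3:**
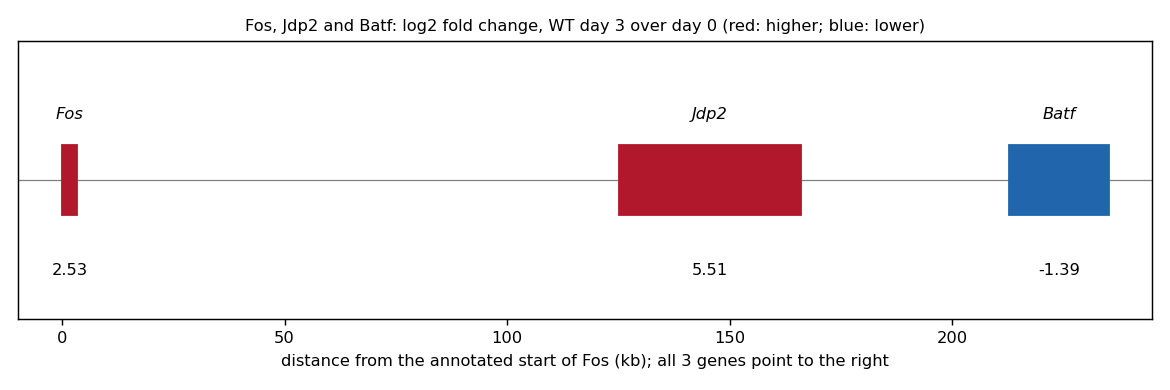
Map of Fos, Jdp2 and Batf to scale, with distance from the annotated start of Fos in kb. Numbers are log2 fold changes of WT day 3 over day 0, with red for higher and blue for lower. The 2 genes that rose, Fos (2.53) and Jdp2 (5.51), lie beside the 1 that fell, Batf (-1.39), within 235.2 kb.

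To compare levels between genes, the deposited FPKM values were used, which are scaled to transcript length. Their sum over the 10 members was 125 ± 9.17 FPKM on WT day 0, 215.6 ± 58.1 on day 1 and 601 ± 88.6 on day 3. In KO it was 162 ± 8.73, 174 ± 2.71 and 435 ± 116 FPKM. FPKM carries no TMM factor, and these factors were 0.855 to 0.948 on WT day 0 and 1.147 to 1.204 on WT day 3. A rise from day 0 to day 3 is therefore larger in FPKM than in CPM. On day 0 the Jun family made up 76.4 ± 4.97% of the sum in WT and 75.4 ± 3.42% in KO, in the order Junb, Jund and Jun by mean FPKM under both labels. By day 3 the share of the Jun family was 41.2 ± 1.42% in WT and 46.5 ± 4.09% in KO. Jdp2 went from 2.97 ± 0.64% to 35.9 ± 2.2% of the sum in WT and from 4.21 ± 1.27% to 31.4 ± 5.06% in KO, and ranked first on day 3 under both labels. The 4 Fos genes together went from 11.4 ± 4.91% to 22 ± 1.1% in WT and from 12.4 ± 2.97% to 20.5 ± 1.29% in KO. Fosl2 alone went from 3.11 ± 1.09% to 10.7 ± 0.6% in WT. Batf went from 8.34 ± 1.6% to 0.879 ± 0.15% in WT. These shares are a description of RNA per length and say nothing of protein.

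**Figure D4:**
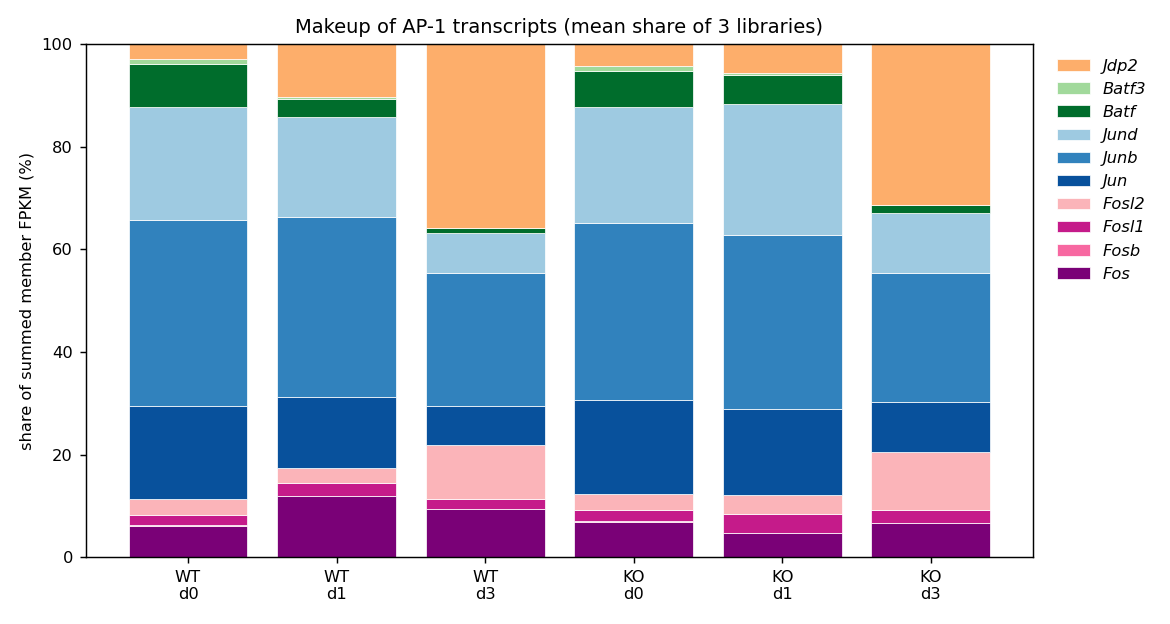
Share of each member in the summed FPKM of the 10 members, in percent, as stacked means of 3 libraries for each label and day. The Jun family (blue) holds 76.4% in WT and 75.4% in KO on day 0, and Jdp2 (orange) goes from 2.97% to 35.9% in WT and from 4.21% to 31.4% in KO by day 3.

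The order of levels on WT day 3 was led by Jdp2 (217 ± 45.1 FPKM) and Junb (155 ± 22.6 FPKM). Their means differed by less than their SDs together, but these SDs are between libraries. Within each library Jdp2 was above Junb (202.4 against 158.1, 180.8 against 130.7 and 267.4 against 175.5 FPKM). Fosl2 (64.6 ± 12.3), Fos (55.9 ± 6.27), Jund (47 ± 4.05) and Jun (45.4 ± 4.46 FPKM) followed, and neighbours in that order differed by less than their SDs together. Within each WT day 3 library these genes kept that order, Jund and Jun by as little as 42.64 against 42.6 FPKM. Fosl1 (11.1 ± 1.94) and Batf (5.2 ± 0.22 FPKM) came next, and Fosb (0.414 ± 0.25) and Batf3 (0.104 ± 0.15 FPKM) were last. On WT day 0 the order was Junb (45.4 ± 1.7), Jund (27.9 ± 7.97), Jun (22.8 ± 6.94), Batf (10.5 ± 2.66), Fos (7.52 ± 5.2), Fosl2 (3.84 ± 1.16), Jdp2 (3.69 ± 0.62), Fosl1 (2.44 ± 2.63), Batf3 (1.13 ± 0.56) and Fosb (0.173 ± 0.11 FPKM). Neighbours in the day 0 order differed by more than their SDs together between Junb and Jund, between Jun and Batf and between Batf3 and Fosb, and by less elsewhere.

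After 1 day of RANKL, 1 member was called in WT, Jdp2 (1 of 10 against 2.35% of all genes). The call rested on 2 of 3 libraries. Jdp2 was at 111.4 and 95.24 CPM in libraries 1 and 2 and at 12.17 CPM in library 1dh, which lay within the day 0 range of 10.96 to 13.73 CPM. The log2 fold change was 2.60 ± 0.63 (adjusted p = 0.0468). It was 3.10 without library 1dh, and the call was lost in 9 of 16 alternatives. Fos showed the same split, at 191.6 and 103.6 CPM in libraries 1 and 2 and 28 CPM in 1dh, against at most 54.41 CPM on day 0 (log2 fold change 1.79 ± 0.56, adjusted p = 0.0918). Junb was at 190.8, 147.3 and, in 1dh, 102.5 CPM (0.68 ± 0.21, adjusted p = 0.0876). Library 1dh also differed in cell markers, with a stromal marker sum of 232.5 CPM against 2775 and 2443 in libraries 1 and 2. Its osteoclast marker sum was the highest of the group (1105 CPM against 500.6 and 676.5). So was its neutrophil marker sum (2126 CPM against 352.5 and 467.4). The part of these markers in its lower levels of Jdp2 and Fos was not tested. Without 1dh, 4 members were called (Fos, Junb and Jdp2 higher, Batf lower), and the share of all genes called was 12.4%. Without WT day 0 library 3 there were 2, Fosl1 and Jdp2 (7.35% of all genes), and without any one of WT day 0 library 1 or 2 or WT day 1 library 1 or 2 there were 0 (at most 1.19% of all genes). At an unadjusted p under 0.05 there were 5 members, against 20.5% of all genes, and DESeq2 called 3, against 9.13% of all genes.

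In KO no member was called on day 1 by edgeR, where 0.0211% of all genes were called. There was also none among the members at an unadjusted p under 0.05 (10.2% of all genes) and none by DESeq2 (1.26% of all genes). Jdp2 was at 17.5, 19.84 and 53.08 CPM, and only library 3, the one with a single-hyphen title, was above the day 0 range. Fos was at 25.45, 28.57 and 44.17 CPM, against 36.38 to 55.77 CPM on KO day 0 (log2 fold change -0.49 ± 0.55, adjusted p = 0.808, edgeR). Library 3 was again the highest, but here it lay within the day 0 range. That library also had the most stromal marker CPM of its group (8193, against 3568 and 2385).

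From day 1 to day 3, 5 members were called in WT against 32% of all genes. Fosl2, Junb and Jdp2 were higher (12.7% of all genes) and Batf and Batf3 lower (19.3%). The log2 fold change was 3.12 ± 0.30 for Fosl2, 2.91 ± 0.62 for Jdp2 and 0.72 ± 0.21 for Junb (adjusted p 1.42e-05, 0.00323 and 0.0168). For Batf it was -0.80 ± 0.26 (adjusted p = 0.0320), and that call was lost in 10 of 16 alternatives. The calls of Junb and Batf3 were each lost in 5 of 16. Without WT day 1 library 1dh or WT day 3 library 1 there were 3 calls (20.3% and 23.2% of all genes), and without WT day 3 library 3 there were 2 (19.6%), with Fosl2 and Jdp2 among them each time. In KO, 7 were called against 28% of all genes, with Fos, Fosb, Fosl2, Junb and Jdp2 higher (12.5%) and Batf and Batf3 lower (15.5%). The log2 fold change was 3.60 ± 0.64 for Jdp2, 2.65 ± 0.29 for Fosl2 and 1.57 ± 0.55 for Fos (adjusted p 0.00128, 6.38e-05 and 0.0471). The calls of Fos, Fosb and Junb were close to the threshold, at adjusted p 0.0471, 0.0493 and 0.0467. Of 16 alternatives, the call of Junb was lost in 11, of Fos in 9, of Batf in 7 and of Batf3 in 4. That of Fosb was lost in 9 of 15. In KO, same-numbered libraries deviated together between days 1 and 3. With the replicate block within label the calls of Fos and Junb were lost. The 5 that remained were Fosb, Fosl2, Batf, Batf3 and Jdp2, beside 28.2% of all genes. There were 3 calls without KO day 1 library 1 or 2 (15.8% and 15.7% of all genes) and 2 without KO day 3 library 1 or 2 (19.5% and 15.4%). Leaving out the 5 double-hyphen libraries leaves 1 KO day 1 library, assumed to vary like the other groups. The share of all genes called was then 4.04%, and 2 members were called, Fosl2 and Jdp2, which also kept their calls in every other alternative. The comparisons with day 3 share its libraries.

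The question of the study was what the loss of Zmat1 does to this course. Between libraries labelled KO and WT no member was called by edgeR on day 0, 1 or 3, where 0.119%, 0.112% and 0.14% of all genes were called. At an unadjusted p under 0.05 there were 0, 2 and 1 members, against 7.59%, 7.9% and 10.7% of all genes. DESeq2 called no member on any day, against 0.451%, 0.535% and 1.66% of all genes. On day 1 the 2 were Fos (log2 fold change of KO over WT -1.72 ± 0.56, adjusted p = 0.497) and Jdp2 (-1.28 ± 0.59, adjusted p = 0.631). Both rest on the WT day 1 libraries 1 and 2, since WT library 1dh, at 28 CPM of Fos and 12.17 CPM of Jdp2, was within or below the KO range. Without 1dh, Fos passed (log2 fold change -2.17, adjusted p = 0.0449, against 0.0449 to 0.91 over 15 alternatives). The share of all genes called was then 0.899%, against 0.112% in the main fit. Without the 5 double-hyphen libraries, which leaves 1 KO library, the value of Fos was -1.73 (adjusted p = 0.411). On day 3 the 1 was Junb (-0.47 ± 0.21, adjusted p = 0.442). On the same day the log2 fold changes were -0.90 ± 0.54 for Fos (adjusted p = 0.583) and -0.59 ± 0.58 for Jdp2 (adjusted p = 0.742). All 3 KO day 3 libraries lay below all 3 of WT for 3 of the 10 members (Fos, Junb and Jdp2) and for 13.3% of all genes. All 3 KO day 0 libraries lay above all 3 of WT for 2 of the 10 (Junb and Jdp2) and for 4.9% of all genes, and neither passed (log2 fold change 0.27 ± 0.21 for Junb and 0.86 ± 0.60 for Jdp2, adjusted p 0.838 and 0.813). The KO day 0 libraries had more osteoclast marker CPM than any WT day 0 library, by a narrow gap (524.4 to 814.7 against 104.3 to 522.2). They also had more neutrophil marker CPM (3650 to 11710 against 661.9 to 3012). The KO day 3 libraries had more stromal marker CPM than any WT library (20420 to 29340 against 10950 to 14110 on WT day 3). Their neutrophil marker sums were also above those of WT day 3 (97.58 to 1147 against 35.81 to 66.94). Their osteoclast marker sums ran lower but overlapped with those of WT day 3 (7844 to 17020 against 15240 to 22410). The part of these markers in the differences between labels was not tested.

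**Figure D5:**
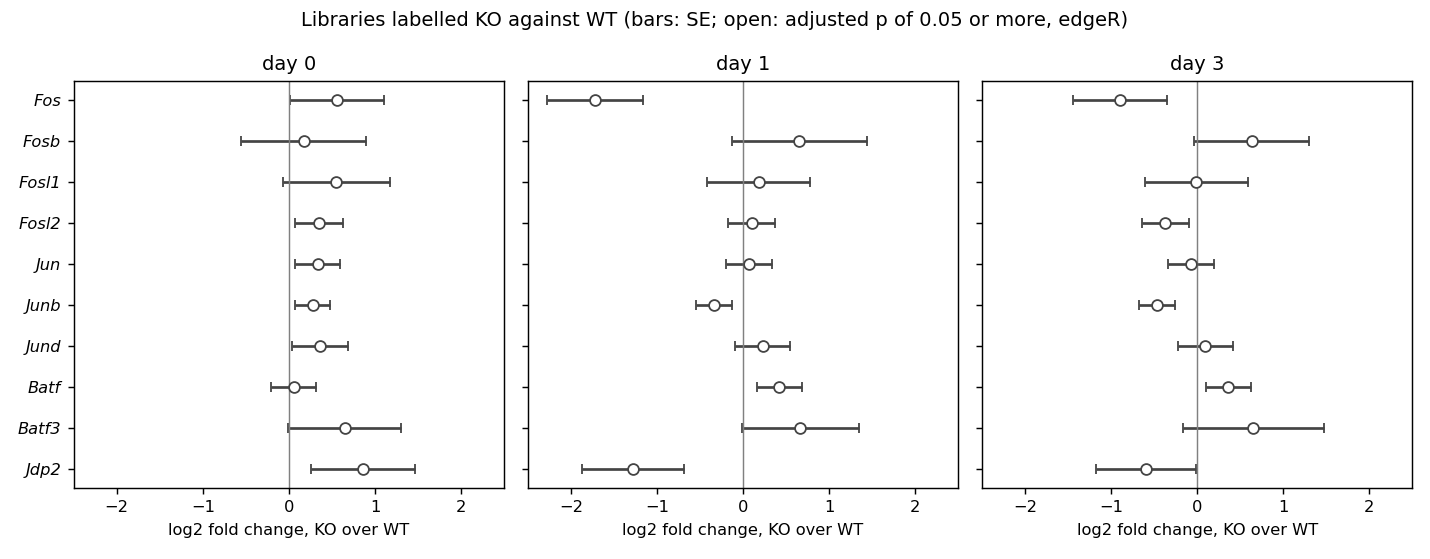
Log2 fold change of libraries labelled KO over WT for each member on days 0, 1 and 3, with SE bars, from edgeR. All points are open because none had an adjusted p under 0.05, and Fos (-1.72) and Jdp2 (-1.28) on day 1 are farthest from 0.

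The test of whether the rise itself differed between labels gave no member either. For day 1 minus day 0, edgeR called 0% of all genes, 3.7% had an unadjusted p under 0.05, and DESeq2 called 0%. Fos (log2 difference -2.28 ± 0.78) and Jdp2 (-2.14 ± 0.85) had unadjusted p 0.0104 and 0.0233 and adjusted p 1 for both. For day 3 minus day 0, edgeR called 0%, 5.4% had an unadjusted p under 0.05, and DESeq2 called 0.0282%, none of them a member. Junb (-0.74 ± 0.29) was the 1 member with an unadjusted p under 0.05 (0.0229, adjusted p = 0.91), and the differences were -1.46 ± 0.77 for Fos, -1.46 ± 0.84 for Jdp2 and -0.73 ± 0.39 for Fosl2. These comparisons share their libraries with those above.

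The style of the titles moved with several members within days 0 and 1. With style as a covariate beside the 6 groups, 23.2% of all genes were called between double-hyphen and single-hyphen titles. Among the members Jund was higher in the double-hyphen libraries (log2 fold change 0.88, adjusted p = 1.49e-05), as were Batf (0.53, adjusted p = 0.0106) and Jun (0.49, adjusted p = 0.0306). Jdp2 was lower (-1.27, adjusted p = 0.0183), and so was Fosl2 (-0.69, adjusted p = 0.00113). Jund shows it without a fit. On WT day 1 it was at 185 CPM in library 1dh and 83.71 and 88.35 CPM in the others, and on KO day 1 at 158.7 and 168.6 CPM in double-hyphen libraries and 89.94 CPM in the single-hyphen one. With that covariate the day 3 rise of Jund passed in WT (0.72 ± 0.10, adjusted p = 7.86e-05) and in KO (0.44 ± 0.10, adjusted p = 0.00313), as did that of Jun in WT (0.80 ± 0.21, adjusted p = 0.00623). All day 3 libraries have single-hyphen titles. The labels do not say what the style stands for.

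Beside the list counts that follow, 23.7% of all genes were higher and 26.5% lower on WT day 3 than on day 0, and 20.2% and 22.3% in KO. Of 11 ATF and MAF genes, 2 were higher and 5 lower on WT day 3 than on day 0, and 2 and 4 in KO. Maff (log2 fold change 1.82 in WT), a small MAF without an activation domain, and Atf4 (1.08), of the amino acid response, rose. Atf3 (-2.20), a stress-induced AP-1 partner, and Maf (-2.09), a macrophage MAF that pairs with FOS and JUN, fell. Of 15 other immediate early genes, which are induced by the same signals as Fos, 5 were higher and 5 lower in WT, and 2 and 5 in KO. Egr3 (3.25) and Myc (2.49) rose, and Ier3 (-1.75) and Btg2 (-1.13) fell in WT. The members and these lists were not tested as sets.

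Of 16 genes of the MAP kinase cascade above AP-1, 3 were higher and 5 lower in WT and 2 and 4 in KO, beside the same shares of all genes (23.7% and 26.5% in WT, 20.2% and 22.3% in KO). Map2k3 (log2 fold change 1.11 in WT), which activates p38, and Mapk8 (0.82), the kinase JNK1 that acts on c-Jun, rose. Map3k1 (-2.02), a kinase above JNK, and Mapk14 (-1.56), the p38 alpha kinase itself, fell. Of 8 factors known at the Fos and Jun promoters, 1 was higher and 4 lower in WT and 1 and 2 in KO. Srf (0.45), which binds the CArG box, rose, while Mef2c (-1.53) and Creb1 (-0.73), which binds the CRE, fell. Scaled by total counts the kinase list had 6 higher and 4 lower in WT and the promoter factors 1 and 1, and 1 called promoter factor, Elk4, changed sign (-0.30 in the TMM fit).

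Downstream, 9 of 10 osteoclast genes that AP-1 and NFATc1 are known to control were higher on day 3 under both labels and none was lower. Nfatc1 went from 110.5 ± 3.52 to 638 ± 128 CPM in WT (log2 fold change 2.53 ± 0.20) and from 94.1 ± 8.71 to 423 ± 112 CPM in KO (2.17 ± 0.20). Ctsk, the protease with which osteoclasts degrade collagen, went from 19.1 ± 10.3 to 4776 ± 1016 CPM in WT. Calcr, the calcitonin receptor, had 0 CPM in every day 0 library and 15.2 ± 1.79 CPM on WT day 3, and Oscar, a receptor of osteoclasts, went from 0.0258 ± 0.045 to 61.5 ± 22.8 CPM. The gene not called was Atp6v0d2.

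For each member, the gene outside the family with the most similar pattern over the 18 libraries was found by Pearson correlation of log2 CPM. The correlation was highest for Fosl2 with Spns2 (r = 0.993) and Jdp2 with Tomm40 (0.987). It was 0.967 for Batf3 with Trf, 0.965 for Batf with Smim24, 0.963 for Junb with Mrpl12 and 0.949 for Fosl1 with Snai1. It was 0.937 for Fos with Malt1, 0.919 for Jun with Atp6v0d2, 0.909 for Jund with the mitochondrial mt-Nd1 and 0.807 for Fosb with Shf. Within the family Jdp2 was nearest to Fosl2 (0.957), Fos to Junb (0.894), Batf to Batf3 (0.908) and Jun to Jund (0.724). The 18 points share days, labels and title styles, so these values are a description only.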

How the data were processed

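RNA was sequenced from mouse bone marrow-derived macrophages in 18 libraries, 3 for each of 6 groups of Zmat1 label and day of RANKL. The authors extracted RNA with a column kit, made libraries with a SMARTer kit and deposited 1 table with whole-number read counts and FPKM values for each gene. The FPKM values were made by the authors with StringTie and Ballgown, on GRCm38 (mm10) per the processing notes. The aligner and the counting program are not given in the sources used here. The design text and the methods of the study differ on how long M-CSF was given before RANKL. Count columns of no sample numbered 0, and rows naming no gene numbered 0.

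Counts were fitted in R 4.3.3 with edgeR 4.0.16 (filterByExpr, TMM, glmQLFit and glmQLFTest) on all 18 libraries as 6 groups. P-values are 2-sided and adjusted by Benjamini-Hochberg over 14241 genes, and genes under 0.05 were called. Standard errors come from the quasi-likelihood F statistic, and fitted fold changes of low genes depend on the prior count. DESeq2 1.42.0 was run beside it. The procedure was tested on simulated data. Precision is limited by 3 libraries a group and, for genes of few counts, by counting error, and copies made by the polymerase chain reaction were not told apart. FPKM was used to compare levels between genes and for the sums and shares by day. For each member it was proportional to the count divided by the library total, with no TMM factor.

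Alternatives were no filter, a stricter filter (5 CPM in 3 libraries), total counts or DESeq2 size factors, DESeq2, only the groups compared, a replicate block, title style as a covariate and each library left out. Leaving out the 5 double-hyphen libraries was added after seeing the data. In KO, same-numbered libraries correlated in their deviations from group means between days 0 and 3 (0.13 to 0.398) and days 1 and 3 (0.156 to 0.34). Between days 0 and 1 the values were 0.0536, 0.501 and 0.598 for numbers 1, 2 and 3. On these days the libraries of number 1 differed in title style, and those of numbers 2 and 3 did not. In WT same-numbered libraries did not deviate together, and the labels do not say what a number shares.

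The members and lists were chosen with earlier results of these data known. The genes named are the 10 members, Zmat1, in each list up to 2 called genes with the largest fold change in each direction in WT day 3 against day 0, marker genes, and the gene most correlated with each member. Nfatc1, Ctsk and Elk4 were named after their values were seen. Promoter sequences are RefSeq windows (GRCm38.p6), and protein sequences were not used here.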

Additional observations from a re-analysis of the deposited data

How the results depend on the processing

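No log2 fold change of a member with an unadjusted p under 0.05 changed direction under any alternative run. Among all 10 members and 5 of the alternatives (title style, no double-hyphen libraries, total counts, DESeq2 size factors, replicate block within label), 21 of 520 values changed sign, none of them called before and 3 called afterwards. These 3 were Jund, day 3 against day 1, in WT (-0.04, then 0.34 with title style and 0.47 without double-hyphen libraries) and in KO (-0.18, then 0.46 with title style). Calls between day 3 and day 0 kept the same side of the threshold under every alternative for Fos, Fosl2, Junb, Batf, Batf3 and Jdp2 in WT and for Fosl2, Batf, Batf3 and Jdp2 in KO. Counts of members called moved by over 1.5 times in 4 comparisons. For WT day 1 against day 0 (1 call), there were 0 with no filter, with total counts, with only the groups compared, with the replicate block and with the replicate block within label, 3 with DESeq2 and with title style as a covariate (9.13% and 7.03% of all genes, against 2.35%), 2 without the 5 double-hyphen libraries (7% of all genes), and 0 to 4 when 1 library was left out. Of the settings with 0 calls, no filter called 0.59% of all genes, total counts 1.45% and the replicate block 0.0632%. Only the groups compared and the replicate block within label called 0%. For WT day 3 against day 1 there were 5 calls (32% of all genes). There were 2 with only the groups compared (27.6%) and 3 with the replicate block within label (22.5%). There were 2 to 5 when 1 library was left out (19.6% to 31.8%). For KO day 3 against day 1 (7 calls), there were 4 with no filter and with title style as a covariate (16% and 19.1% of all genes, against 28%), 2 without the 5 double-hyphen libraries (4.04% of all genes, with 1 KO day 1 library left), 5 with the replicate block, and 2 to 6 when 1 library was left out. For KO day 3 against day 1 the share of all genes called was 28.7% with the replicate block and 15.4% to 29% when 1 library was left out. For KO against WT on day 1 (0 calls), there were 0 to 1 when 1 library was left out (at most 0.899% of all genes). The cause was not tested in any of these. Both blocks placed WT day 1 libraries 1 and 1dh together under number 1, as in their titles, and no WT day 1 library under number 3. The block across labels assumes that equal numbers in KO and WT belong together, which the labels do not say, and in WT same-numbered libraries did not deviate together. The block changed no call of the other comparisons beyond that of Fosb (KO day 3 against day 0, gained) and, within label, of Jun (WT day 3 against day 0, gained). Depth limits Fosb, at 2 to 45 counts, and Batf3 on day 3, at 0 to 13 counts.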
